A study of Homo sapiens with 2 samples.

Results

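Messenger RNA levels of genes that bring iron into the cell, store it, release it, sense it and free it from heme were read from a table of 2 THP-1 libraries. The set was defined by gene symbol alone, as 10 named genes with no minimum level, and the listed transcripts of each gene were summed. Of these, 9 genes had values, carried by 23 transcripts, out of 11697 gene symbols and 29373 transcripts in the table. SLC11A1, a metal transporter of the phagosome in macrophages, was not analysed here. THP-1 is an established line of human monocytic leukaemia cells, grown in RPMI-1640 with serum. One culture was given the solvent DMSO and the other 2 µM of an agent that the labels call OPA1, and both were collected after 48 h. The agent's name is unrelated here to the mitochondrial gene of that symbol, and the title of the series places it in work on opioid receptor signalling and TET-dependent DNA demethylation. There was 1 library per treatment, so no value below has an error between replicates and no p-value was computed. Each difference describes these 2 libraries only.

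Cells take up iron mainly as transferrin bound to the transferrin receptor, reduce it in the endosome and move it to the cytosol, where it is used, stored in the ferritin shell or exported by ferroportin. Heme oxygenase opens the heme ring and frees its iron, a main route of iron recycling in macrophages. The system is known above all for its control after transcription. When iron is scarce, the RNA-binding proteins IRP1 and IRP2 bind a short hairpin, the iron-responsive element, in the mRNAs of these genes. Binding near the start of ferritin or ferroportin mRNA blocks translation, whereas binding in the 3' UTR of transferrin receptor mRNA keeps it stable. Both proteins therefore act on protein output in ways that mRNA levels show only in part.

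The hairpin is the sequence that sorts these genes, so it was located in each listed transcript. All 23 transcripts were found by identifier in GENCODE release 29, which is on build GRCh38. The motif, searched on the transcript strand only because the hairpin forms in RNA, was an unpaired C, any 5 bases of stem, the 6-base loop CAGTGN and any 5 bases of stem. A full match had all 5 stem pairs (G with T allowed) and a further pair closing below the C. Full matches are held by 0.42% of the 29274 listed transcripts found in that release and by 0.295% of its 83129 protein-coding transcripts. FTH1, FTL and SLC40A1 each had 1 full match in the 5' UTR, and TFRC had 4 in the 3' UTR. The 29 bases around each are given as DNA, 5′ to 3′, with the loop in capitals.
FTH1, chr11:61967574-61967602, minus strand: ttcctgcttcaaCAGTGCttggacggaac
FTL, chr19:48965335-48965363, plus strand: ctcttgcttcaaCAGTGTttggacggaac
SLC40A1, chr2:189580661-189580689, minus strand: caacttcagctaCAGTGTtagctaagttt
TFRC, the first, chr3:196050979-196051007, minus strand: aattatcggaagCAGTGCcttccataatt
TFRC, the second, chr3:196050575-196050603, minus strand: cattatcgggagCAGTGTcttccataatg
TFRC, the third, chr3:196050510-196050538, minus strand: ctgtatcggagaCAGTGAtctccatatgt
TFRC, the fourth, chr3:196050463-196050491, minus strand: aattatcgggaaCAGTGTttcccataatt
SLC11A2, 4 of 5 stem pairs, chr12:50988269-50988297, minus strand: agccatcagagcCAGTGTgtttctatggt
The printed stretches of the 2 ferritin genes differ at 3 of 29 bases. The sequence shown for SLC11A2, a gene known to make forms with and without the element, lies in the 3' UTR of SLC11A2-205 and in neither of the other 2 listed transcripts of that gene. Matches with 4 or 5 stem pairs are common, in 7.69% of listed transcripts, and also occur once each in ACO1-201 and IREB2-201, so this looser rule does not single out a transcript. No full match was found in HMOX1, NCOA4, IREB2 or ACO1, which says only that no stretch of their listed transcripts meets the full rule.

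**Figure D1:**
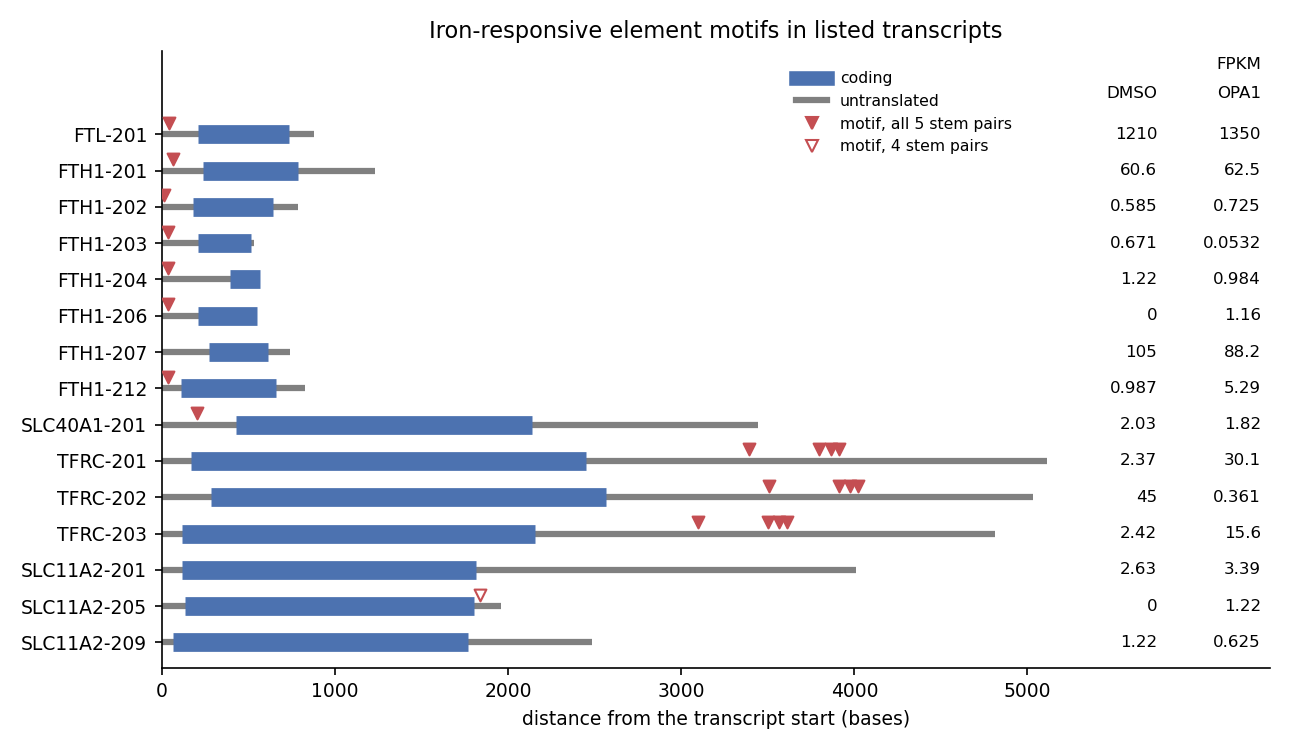
Listed transcripts of the 5 genes whose sequence is printed, drawn to scale from the transcript start (x axis, bases; GENCODE 29), with coding parts in blue, untranslated parts in grey and motif positions as triangles; the columns at the right give FPKM in the DMSO and OPA1 libraries. FTH1-207, the most abundant FTH1 transcript at 105 and 88.2 FPKM, has no triangle, while all 3 TFRC transcripts have 4.

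At the level of genes the 2 libraries were alike. Values are the authors' FPKM, fragments scaled to transcript length and to the total of the library, and pairs of values give DMSO first and OPA1 second. The log2 ratio is that of OPA1 over DMSO after adding 1 FPKM, and 2-fold means a log2 ratio of at least 1 in either direction. None of the 9 genes was 2-fold apart, where 3.96% of the 10601 genes averaging 1 FPKM or more over the pair of libraries were. A count of 0 among 9 is near that background. All 9 genes reached the minimum mean. By any amount, 4 were higher with OPA1 (FTL, SLC11A2, HMOX1 and ACO1; 49.9% of all genes tested) and 5 were lower (FTH1, TFRC, SLC40A1, NCOA4 and IREB2; 50.1%). Their median log2 ratio was -0.09, beside 0.00 over all genes tested, and the individual ratios ran from -0.20 to 0.36. The order of the levels was the same in both libraries, from FTL at the top through FTH1, TFRC, NCOA4, IREB2, ACO1, SLC11A2 and SLC40A1 to HMOX1. TFRC and NCOA4 were the closest neighbours in it, and without replicates it cannot be said which neighbours differ beyond their spread.

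**Figure D2:**
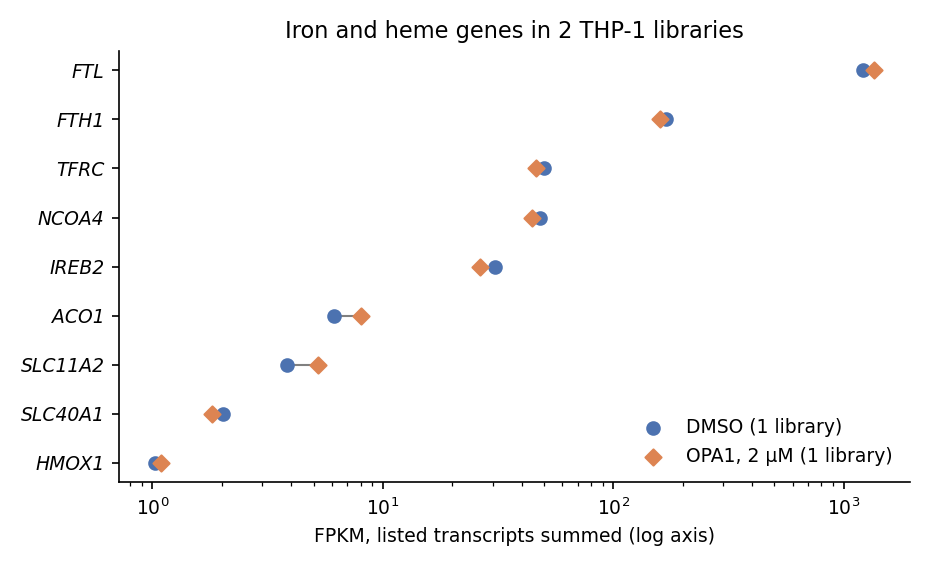
FPKM of each gene (x axis, log scale, listed transcripts summed) in the DMSO library (circles) and the OPA1 library (diamonds), 1 library each. The genes span from HMOX1 near 1 FPKM to FTL at 1210 and 1350 FPKM, and the symbols of each gene lie close together, farthest apart for SLC11A2 and ACO1.

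Storage was the most abundant function. FTL encodes the ferritin light chain, which lines the core where iron is laid down (chromosome 19, 49468558 to 49470135, hg19). It was at 1210 FPKM under DMSO and 1350 FPKM under OPA1, a ratio of 1.12 and a log2 ratio of 0.16. Its mean was above that of 99.8% of the genes tested. Among the 201 genes with a mean of 200 FPKM or more, 31.3% differed by at least as much in either direction, so the difference is an ordinary one at this level. FTH1 encodes the heavy chain, whose ferroxidase site oxidises iron on entry (chromosome 11, 61727190 to 61735132, hg19). Its 7 listed transcripts summed to 169 and 159 FPKM, a log2 ratio of -0.09. Of the genes at 50 to 200 FPKM, 60.2% differed by at least as much. Light chain mRNA thus exceeded heavy chain mRNA per length in both libraries, by 7.17 times with DMSO and 8.49 times with OPA1. This ratio carries a limit of counting, because GENCODE 29 annotates 25 pseudogenes named after FTH1 and 16 named after FTL, and how reads shared with these copies were assigned is not given in the sources used here.

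Most of the FTH1 estimate, as FPKM per length, was assigned to a transcript without the hairpin. FTH1-207 was at 105 FPKM under DMSO and 88.2 FPKM under OPA1, or 62.1% and 55.5% of the gene. It is 742 bases long and codes for a stretch of 339 bases, where the 1229-base FTH1-201 has a coding sequence of 549 bases. FTH1-201, which carries the hairpin, stood at 60.6 and 62.5 FPKM. The remaining transcripts were minor. FTH1-212, with the same coding sequence as FTH1-201, was at 0.99 and 5.29 FPKM. The other 4 lay between 0 and 1.22 FPKM, among them FTH1-206, given as 0 under DMSO and as 1.16 FPKM under OPA1. The 6 transcripts with the hairpin summed to 64.0 FPKM under DMSO and 70.7 FPKM under OPA1, 37.9% and 44.5% of the gene. FTH1-207 overlaps FTH1-201 in the genome. Whether the cells made the transcripts in these shares, or the estimate was divided otherwise between overlapping ones, was not tested. NCOA4, the cargo receptor that delivers ferritin to the lysosome to release its iron (chromosome 10, 51565108 to 51590731, hg19), had 1 listed transcript. It was at 48.0 FPKM under DMSO and 44.4 FPKM under OPA1, a log2 ratio of -0.11. That small difference was matched or exceeded by 55.4% of the genes at 20 to 50 FPKM. GENCODE 29 also annotates 3 pseudogenes named after NCOA4.

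For uptake, the gene sum of the transferrin receptor was nearly level while its transcripts changed places. TFRC (chromosome 3, 195776155 to 195809060, hg19) summed to 49.8 FPKM under DMSO and 46.1 FPKM under OPA1, a log2 ratio of -0.11. At 20 to 50 FPKM, 56.3% of genes differed by at least as much. Beneath that sum nearly the whole estimate moved. TFRC-202 held 45.0 FPKM in the DMSO library and 0.36 FPKM in the OPA1 library, or 90.4% and 0.78% of the gene. TFRC-201 was at 2.37 and 30.1 FPKM, and TFRC-203 at 2.42 and 15.6 FPKM. So TFRC-201 and TFRC-203 were high where TFRC-202 was near 0. The part of the sum that lay on another transcript in the other library was 89.6%. Such an exchange, at least as large, was found in 2.28% of the 7207 tested genes with 2 or more listed transcripts, whose median was 13.8%.

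The structure of these transcripts sets out what the exchange involves. TFRC-201 and TFRC-202 have the same coding sequence of 2280 bases and differ in their untranslated ends, with a 5' UTR of 170 against 283 bases and a 3' UTR of 2661 against 2469 bases. TFRC-203 has a coding sequence of 2037 bases and shares the 3' UTR length of TFRC-201. All 3 keep the 4 hairpins printed above, so the sum of transcripts with the hairpin equals the gene sum and was as level as it. Their lengths are 5111, 5032 and 4814 bases. At such close lengths, an assignment of the same fragments to another of them alters the FPKM sum little. Whether the cells made different transcripts or the estimate moved between overlapping ones was not tested, and no read coverage was analysed here.

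SLC11A2, or DMT1, carries iron across the endosomal membrane (chromosome 12, 51373318 to 51420142, hg19). Its sum was 3.85 FPKM under DMSO and 5.23 FPKM under OPA1, a ratio of 1.36 and a log2 ratio of 0.36, the largest among the 9 genes. It is no rare size of difference: 26.6% of the genes at 2 to 5 FPKM differed by at least as much. SLC11A2-205, the transcript with the looser match of 4 stem pairs in its 3' UTR, was given as 0 in the DMSO library and as 1.22 FPKM in the OPA1 library. SLC11A2-201 was at 2.63 and 3.39 FPKM and SLC11A2-209 at 1.22 and 0.62 FPKM. An exact 0 in such a table can be a failed estimate and is not evidence of absence. None of the 3 holds a full match. SLC11A2-201 is 4011 bases long, SLC11A2-205 1958 and SLC11A2-209 2486. The FPKM sum of the gene therefore depends in part on which transcript the fragments were assigned to. Of the transcripts without the looser match, the more abundant was higher and the less abundant lower in the OPA1 library.

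The exporter and the inducible heme oxygenase had the lowest levels of the 9 genes. SLC40A1, or ferroportin, the only known iron exporter of mammalian cells (chromosome 2, 190425305 to 190445613, hg19), had 1 listed transcript at 2.03 FPKM under DMSO and 1.82 FPKM under OPA1. The log2 ratio was -0.10, and 75.8% of the genes at 1 to 2 FPKM differed by at least as much. HMOX1, the inducible heme oxygenase (chromosome 22, 35776828 to 35790207, hg19), was at 1.03 FPKM under DMSO and 1.09 FPKM under OPA1, a log2 ratio of 0.04. Of the genes at its level, 88.5% differed by at least as much, and 0.66% of all genes tested had a lower mean. That share is small because the tested genes begin at a mean of 1 FPKM, which 10601 of the 11697 listed symbols reached. HMOX1 is a classic target of the stress factor NRF2, which NFE2L2 encodes, and of the heme-sensing repressor BACH1. NFE2L2 was at 10.8 FPKM under DMSO and 38.5 FPKM under OPA1, while BACH1 was at 7.24 and 6.59 FPKM and KEAP1, which holds NRF2 down, at 21.5 and 20.2 FPKM. NFE2L2 mRNA thus differed by 3.57 times between libraries in which HMOX1 mRNA was level. The 9 listed NFE2L2 transcripts exchanged 35.9% of their sum, and HMOX1 lay just above the minimum mean of 1 FPKM. NRF2 is controlled mainly at the protein, which was not measured here. HMOX2, the constitutive heme oxygenase, was the more abundant of the pair, at 9.39 and 8.73 FPKM, 9.15 and 8.03 times the HMOX1 value per length. The enzymes of the next step, which reduce biliverdin, went opposite ways by small amounts, with BLVRA at 25.3 and 31.3 FPKM and BLVRB at 10.3 and 7.96 FPKM.

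Of the sensors, IRP2 had a slightly lower sum with steady transcript shares, and IRP1 a higher sum with exchanged transcripts. IREB2 encodes IRP2, which is destroyed when iron is plentiful (chromosome 15, 78730531 to 78793798, hg19). It was at 30.6 FPKM under DMSO and 26.4 FPKM under OPA1, a log2 ratio of -0.20, the lowest of the set. At 20 to 50 FPKM, 31.2% of genes differed by at least as much. IREB2-201 held 95.5% and 95.1% of the gene, so its shares were steady. ACO1 encodes IRP1, which is a cytosolic aconitase when it holds an iron-sulfur cluster and an RNA-binding protein when it does not (chromosome 9, 32384601 to 32454767, hg19). Its sum was 6.12 FPKM under DMSO and 8.02 FPKM under OPA1, a log2 ratio of 0.34 that 24.2% of the genes at 5 to 10 FPKM equalled or exceeded. ACO1-202 was at 4.02 and 0.85 FPKM and ACO1-203 at 0.005 and 5.61 FPKM. ACO1-201 was nearer to level at 2.09 and 1.56 FPKM. An exchange of 69.9% of the sum, as in ACO1, or more was found in 6.59% of genes with several listed transcripts. All 3 ACO1 transcripts share 1 coding sequence of 2667 bases and differ in their untranslated ends, so the exchange leaves the encoded protein the same. ACO1-201 is 7466 bases long, against 3601 for ACO1-202 and 3618 for ACO1-203. As FPKM is per length, the ACO1 sum depends in part on which transcript the fragments were assigned to. Per length, IREB2 exceeded ACO1 by 4.99 times with DMSO and 3.30 times with OPA1, ratios that carry the same limit.

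**Figure D3:**
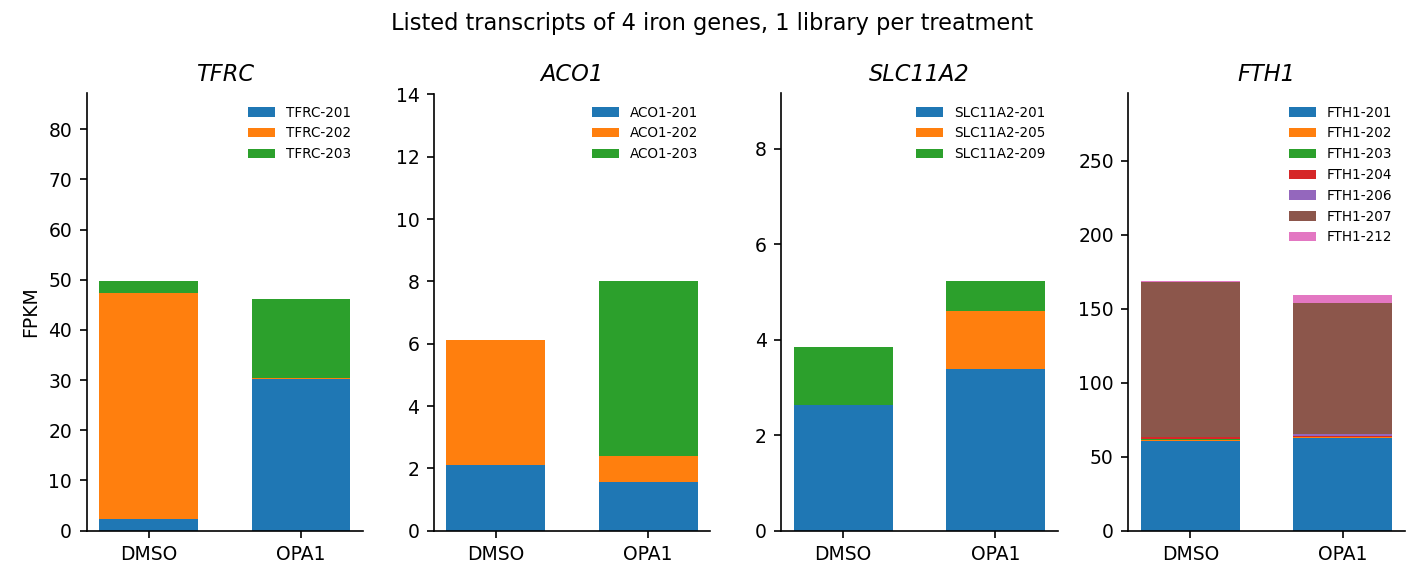
FPKM of every listed transcript (stacked bars, y axis from 0, a separate scale per gene) of TFRC, ACO1, SLC11A2 and FTH1 in the DMSO and OPA1 libraries, 1 each. In TFRC the bar is mostly TFRC-202 with DMSO (45.0 FPKM) and TFRC-201 and TFRC-203 with OPA1 (30.1 and 15.6 FPKM), although the full heights are 49.8 and 46.1 FPKM.

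Counted by transcript, differences were more frequent than by gene, in these genes and in the table as a whole. Of the 23 transcripts, 16 had a mean of at least 1 FPKM, and 6 of those were 2-fold apart. The same held for 18.2% of the 19623 transcripts of the table at that level, 9.09% being higher and 9.12% lower. Those higher with OPA1 were TFRC-201, TFRC-203, ACO1-203 and FTH1-212, and those lower were TFRC-202 and ACO1-202. The minimum was applied to the mean of both libraries, which a transcript can reach through 1 library, as TFRC-202, ACO1-202, ACO1-203 and FTH1-212 did. All of the 6 but FTH1-212 belong to TFRC or ACO1, whose transcripts changed places, so they are not independent. The count of 6 is therefore given as a description. The other 7 transcripts were below the minimum, including SLC11A2-205 and FTH1-206. Only TFRC and ACO1 exchanged more than 50% of their sum, as did 14.6% of the 7207 genes with several listed transcripts. In 6 of the 9 genes at most 10% was exchanged, 4 of them because they have 1 listed transcript.

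**Figure D4:**
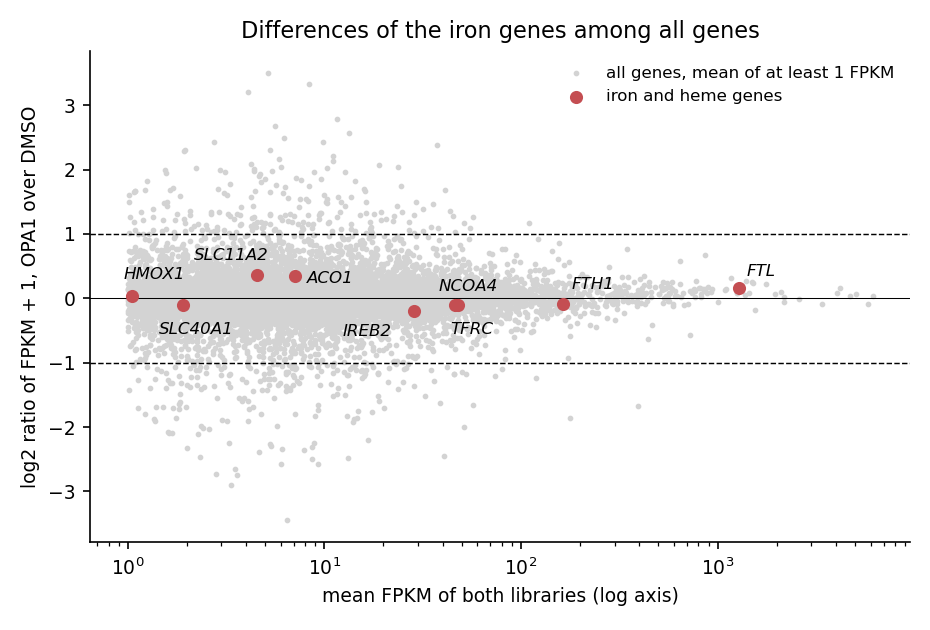
Log2 ratio of FPKM + 1, OPA1 over DMSO (y axis), against the mean FPKM of both libraries (x axis, log scale) for the 10601 genes tested (grey) and the 9 iron and heme genes (red); dashed lines mark 2-fold. Every red point lies between -0.20 and 0.36, inside the dashed lines and within the grey cloud at its level.

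The wider pathway was described by 10 lists of iron and heme genes, 111 genes besides the set itself. Of the 80 that reached the minimum mean, 39 were higher and 41 lower, and the median log2 ratio was -0.01. At least 2-fold higher with OPA1 were 3 (VPS35, SLC25A37 and NFE2L2; background 1.97%) and at least 2-fold lower was 1 (SKP1; background 1.99%), so the shares are of the order of those over all genes. VPS35, a retromer subunit that returns cargo from endosomes, was at 3.15 and 23.5 FPKM on 1 listed transcript. Both mitoferrins, which import iron into mitochondria, were higher: SLC25A37 stood at 3.57 and 9.56 FPKM (log2 ratio 1.21) and SLC25A28 at 8.45 and 16.9 FPKM (log2 ratio 0.92, short of 2-fold). SKP1 belongs to the ubiquitin ligase that removes IRP2, and was at 63.6 and 27.6 FPKM. Its lower sum came from SKP1-210, at 42.0 and 0.40 FPKM, while SKP1-202 was at 10.2 and 17.4 FPKM. FBXL5, the iron-sensing subunit of that ligase, was at 5.33 and 7.77 FPKM. SKP1 and FBXL5 thus differed in opposite directions, with 68.5% and 26.5% of their sums exchanged between transcripts. CUL1 and RBX1 of the same list were near level, at 41.7 and 42.4 FPKM and at 59.4 and 59.8 FPKM.

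Other uptake and storage genes at the minimum mean stayed within 2-fold. The import list had 12 genes with values, and of the 9 at the minimum mean 5 were higher with OPA1 and 4 lower. Their median log2 ratio was 0.13. TFR2 (0.002 and 0.68 FPKM), STEAP1 (0.92 and 0.08 FPKM) and LRP1 (0.82 and 0.66 FPKM) lay below the minimum. Rescaling each library to a sum of 1000000 brought them in, giving 6 higher, 6 lower and a median of -0.02. With no minimum and no rescaling the median was 0.01. The endosomal iron reductase STEAP3 was at 3.81 and 2.28 FPKM and the plasma membrane reductase CYBRD1 at 3.18 and 1.64 FPKM, so both reductases were lower with OPA1. In the storage list 2 of 9 were higher and 7 lower, with a median of -0.09. PCBP2, an iron chaperone that loads ferritin, was at 256 and 220 FPKM, HERC2, a ligase that targets NCOA4, at 7.72 and 6.53 FPKM, and BOLA2, a partner of the iron-handling glutaredoxin GLRX3, at 2.84 and 1.65 FPKM. BOLA2 has a near-identical copy in the genome, so its value is uncertain. The export list had 3 measured genes, 1 higher and 2 lower, with a median of -0.10. They were SLC40A1, SMAD4 (3.45 and 3.16 FPKM), which relays the signal for hepcidin, and ERFE (2.71 and 2.82 FPKM), an erythroid hormone that lowers hepcidin. In the sensing list 4 of the 7 at the minimum mean were higher and 3 lower, with a median of 0.01, or -0.05 with the most abundant transcripts. After the rescaling to 1000000, which also brought in EPAS1, 3 were higher and 5 lower, with a median of -0.01. The list of mRNAs known to carry the hairpin had 8 at the minimum mean, 3 higher and 5 lower. Its median was -0.05, or 0.07 with the most abundant transcripts. SLC11A2 and FTL were its highest, and CDC42BPA, a kinase, was its lowest at 7.54 and 6.90 FPKM.

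Genes that use iron for clusters and heme differed by list. Mitochondrial iron import and iron-sulfur assembly had 10 of 23 genes higher and 13 lower, and a median log2 ratio of -0.02. The cochaperone HSCB was at 2.16 and 0.90 FPKM. Cytosolic iron-sulfur assembly had 8 of 9 genes higher and 1 lower, beside 49.9% of all genes higher, with a median of 0.09 and none at 2-fold. That median was 0.31 when each gene was represented by its most abundant transcript. The 0.31 depends on how estimates were divided between transcripts. NUBP2 exchanged 49.9% and CIAO3 41.6% of their sums, whereas CIAO2A exchanged 4.96% and CIAO1 and CIAO2B have 1 listed transcript each. Its largest ratios were CIAO2B at 12.8 and 17.6 FPKM, CIAO3 at 1.83 and 2.60 FPKM, and MMS19, the 1 that was lower, at 12.6 and 9.40 FPKM. The heme synthesis list had 4 of 11 genes higher and 7 lower, with a median of -0.09, but 1 higher and 10 lower once both libraries were set to the same FPKM sum. TMEM14C, which takes part in moving a heme precursor into mitochondria, was at 15.3 and 27.9 FPKM, UROS at 27.6 and 21.7 FPKM and ALAD at 1.97 and 1.41 FPKM, both enzymes of the pathway. In the list of heme breakdown and transport, 6 of the 10 genes at the minimum mean were higher and 4 lower, with a median of 0.05. ABCC5, a transporter, was at 2.35 and 1.67 FPKM. Regulators of HMOX1 and ferritin transcription had 2 of 5 higher and 3 lower, with a median of -0.08, or 0.04 with the most abundant transcripts. MAFG, a small partner of NRF2 and BACH1, was at 63.3 and 51.0 FPKM.

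**Figure D5:**
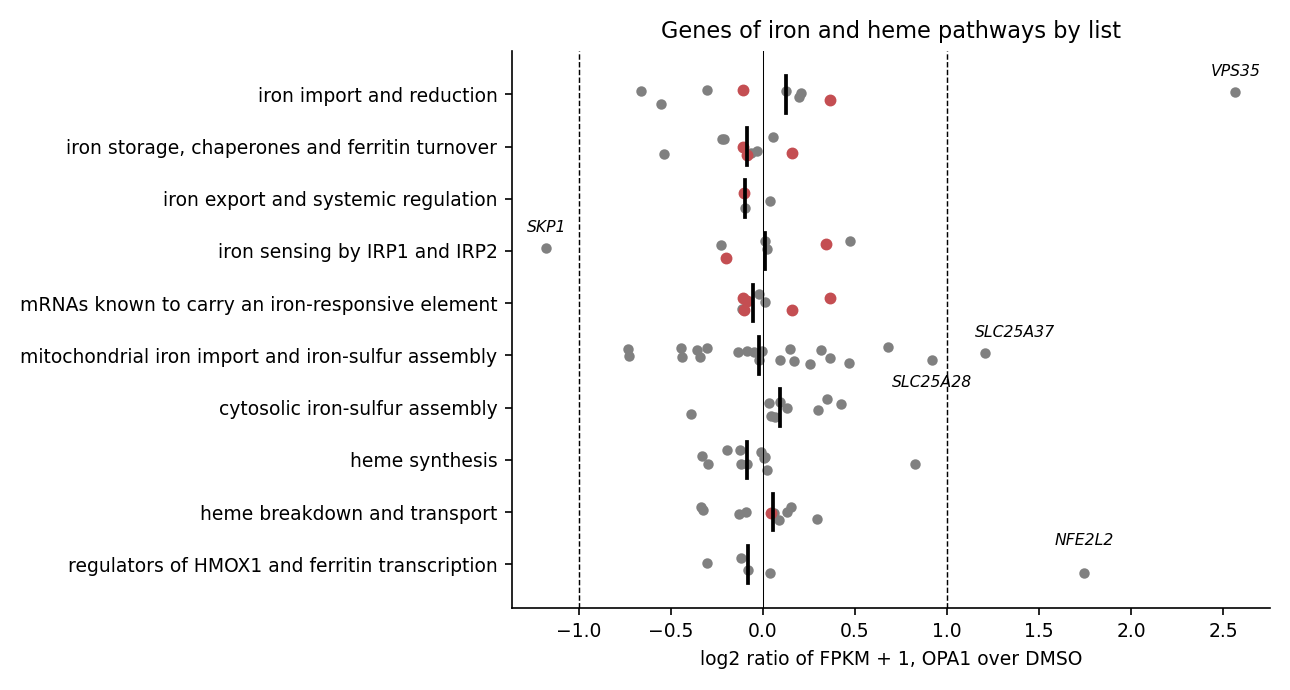
Log2 ratio of FPKM + 1, OPA1 over DMSO (x axis), of each gene at or above the minimum mean in the 10 lists (rows); red points are the 9 genes of the set, grey points other genes, black bars the list medians, dashed lines 2-fold. Medians lie between -0.10 and 0.13, and VPS35, SLC25A37, NFE2L2 and SKP1 lie outside the dashed lines.

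As a whole the libraries were those of myeloid cells. Of 16 myeloid markers 14 had values, and all 14 had a mean above 1 FPKM, with sums of 2185 and 2446 FPKM. Of the 14 erythroid markers, which would mark another iron-rich cell type, only EPOR (1.44 and 1.27 FPKM) and TFR2 (0.002 and 0.68 FPKM) had values, and their sums were 1.44 and 1.95 FPKM. Platelet markers summed to 0.67 and 1.35 FPKM and B cell markers to 0.98 and 1.40 FPKM. The only T and NK cell marker with a value was NKG7, at 26.9 and 27.9 FPKM, and no epithelial or fibroblast marker of the list had any. The part of these markers in the values above was not tested. In bulk RNA, fewer cells of a kind and less RNA per cell cannot be told apart. The listed FPKM summed to 325059 with DMSO and 331515 with OPA1, and since the files give no read depth, no interval for counting error accompanies the values.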

How the data were processed

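Trizol RNA from a DMSO and an OPA1 culture was made into Illumina libraries, per the labels' protocols. The authors deposited FPKM values, as the header states, with a row for every transcript. StringTie, HISAT, edgeR and the build hg19 appear in the submitters' processing notes, with neither version nor role. Strandedness and the handling of multimapping reads were not given in the sources used here. All 29373 rows were protein-coding and reached at least 0.5 FPKM in 1 library, so other transcripts were not analysed here, and a gene sum misses those below that level.

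Transcripts were summed per gene symbol, and genes averaging 1 FPKM or more were the background. The pseudocount was 1 FPKM, which makes differences of low genes smaller. No test could be run on 1 library per treatment. The members and lists were chosen with earlier results of these data known. Named genes were the members, each list's 2-fold genes and 3 largest ratios, and 7 regulators and heme enzymes fixed by name. CUL1 and RBX1 were added beside SKP1. Shares at a like level used 7 ranges of mean FPKM. Motifs, lengths and coding sequences came from GENCODE release 29 by transcript identifier. Its coordinates are on GRCh38, and those of genes are the table's on hg19. The code for fold counts and motif search was checked on simulated data, and that for share exchange on a small made-up example. The planted changes were larger than 2-fold, in genes averaging 5 FPKM or more. These checks say nothing on the error of the calls made here. The software was pandas 2.3.3 with numpy 2.4.6 on Python 3.11.15, and matplotlib 3.10.9 for figures. A gene of the lists counts in the totals and is not reported here.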

Additional observations from a re-analysis of the deposited data

How the results depend on the processing

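The 9 genes kept the sign of their log2 ratio under a pseudocount of 0.1 FPKM, a common library sum of 1000000, subtraction of the median ratio, a scale from the 30% trimmed mean and use of the most abundant transcript. None was 2-fold apart under the first 4 of these settings, with a minimum mean of 5 FPKM, or with no minimum. With the most abundant transcript in place of the sum, 2 were: TFRC at a log2 ratio of -5.08 and ACO1 at 2.72, which follows from the transcript exchanges. A minimum mean of 5 FPKM left 6 genes, of which 2 were higher, and keeping genes whose transcript shares were steady also left 6, of which 2 were higher. Over all genes, 209 were at least 2-fold higher and 211 lower. These counts were 325 higher and 315 lower with the pseudocount of 0.1 FPKM, and 360 and 411 after rescaling to 1000000. That rescaling raises every value, so 11619 genes in place of 10601 reached the minimum and the pseudocount weighed less. The counts were 210 and 211 after subtraction of the median ratio, and 209 and 211 with the trimmed scale. They were 629 and 570 with the most abundant transcript, and 114 and 120 with a minimum of 5 FPKM, where fewer genes were tested. Of 389 recomputed values, 358 stayed within 0.156 of the reported log2 ratio (50% of the interquartile range of all genes) or within 1.5 times the reported count, and 31 did not. Small list medians changed sign within that range in 4 lists, as given beside them. Genes at least 2-fold apart went from 1 to 3 in the import list after rescaling or with the most abundant transcript, and in the mitochondrial list from 1 to 3 with the pseudocount of 0.1 FPKM or rescaling and to 5 with the most abundant transcript. With that transcript the storage list had 2 in place of 0, the export list 1 in place of 0, the sensing list 2 in place of 1 and the list with the hairpin 2 in place of 0. No paired analysis was possible because each treatment has 1 library. Without read counts or replicates, differences of the size seen in the 9 gene sums cannot be told from sampling or culture variation.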

Other observations

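Among other mRNAs known to carry an iron-responsive element, CDC14A, a phosphatase, had 1 listed transcript with a full match in its 3' UTR, at 9.46 FPKM under DMSO and 9.30 FPKM under OPA1. EPAS1, which encodes HIF2A, was at 0.46 and 0.66 FPKM. Neither its 1 listed transcript nor any of the 4 of CDC42BPA had a full match. A missing full match therefore does not show that a gene lacks the element. CDC42BPA exchanged 75.6% of its sum between transcripts, with CDC42BPA-203 at 4.75 and 0.03 FPKM and CDC42BPA-205 at 0.93 and 6.07 FPKM.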
